A study of Mus musculus with 2 samples.

Results

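Within a preparation of biliary epithelial cells from mouse liver, 280 of 6220 analysed cells carried concentrated transcripts of 6 genes that most biliary cells hardly contained: Fanci, Dnah12, Mmp25, Scin, Cx3cr1 and Tll2. Cells were analysed when they had at least 500 detected genes, at least 1000 UMIs (unique molecular identifiers, each marking 1 captured transcript) and at most 15% mitochondrial UMIs, which kept 6220 of 6362 cells. A cell was a member when the summed UMIs of the 6 genes, divided by its total, lay in the top 6% over both libraries and it held at least 2 such UMIs. The 6 genes were chosen from earlier results on these same cells, so their levels describe how the members were picked and nothing more.

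The series has 1 library of liver biliary epithelial cells with the genotype label Sox9cKO, for cells deficient in Sox9, and 1 with the label Sox9con, the control, and compares them. The cells are described as intrahepatic, from ducts inside the liver. Whether a library came from 1 or several animals is not stated. Sox9 is a transcription factor of the bile duct lineage. The Cre driver, the age and sex of the animals and the way the cells were isolated are not given in the sources used here. Fixed whole cells were barcoded by repeated splitting and pooling, with random hexamers and oligo(dT) as primers. The Sox9cKO library had 2713 analysed cells and 96 members, and the Sox9con library 3507 analysed cells and 184 members. Member cells summed to 464818 and 635998 UMIs, against 14330077 and 11977572 UMIs in the other cells. No cell barcode was shared by the libraries. With 1 library per genotype there is no replicate and no test of genotype, and the 95% intervals given cover counting error only. Fewer cells with a transcript and less transcript per cell cannot be told apart in the summed counts.

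Biliary epithelial cells, or cholangiocytes, line the bile ducts and modify bile by moving bicarbonate, chloride and water. They carry a sensory primary cilium rather than the motile cilia of airway or oviduct epithelium, and keratins 7 and 19, Epcam and osteopontin are their usual markers. The genes of the rule belong to unlike families. Fanci encodes a protein of the Fanconi anaemia pathway for DNA crosslink repair, Dnah12 a heavy chain of the dynein motors of motile cilia, and Mmp25 a membrane-anchored matrix metalloproteinase best known from neutrophils. Scin encodes scinderin, a calcium-dependent actin-severing protein of the gelsolin family, Cx3cr1 the receptor of fractalkine on macrophages and other leukocytes, and Tll2 a tolloid-like protease that can process procollagens and growth factor antagonists.

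The values that selected the members were as follows, and no test belongs to them. Fanci (ENSMUSG00000039187) had 577 CPM (the gene's UMIs per 1000000 UMIs of the cell set) in Sox9cKO members and 602 CPM in Sox9con members, against 3.001 and 2.09 CPM in the other cells of each library. Dnah12 (ENSMUSG00000021879) had 258 and 381 CPM, against 2.02 and 3.17. Mmp25 (ENSMUSG00000023903) had 219 and 302 CPM, against 2.09 and 1.59. In the summed counts each of these was far higher in members of both libraries, as the rule itself brings about. Scin (ENSMUSG00000002565) had 239 and 211 CPM, against 2.93 and 3.01, Cx3cr1 (ENSMUSG00000052336) 239 and 381 CPM, against 5.72 and 5.51, and Tll2 (ENSMUSG00000025013) 94.7 and 154 CPM, against 1.19 and 1.75.

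Most members held more than 1 of the 6 genes. At least 2 different rule genes were seen in 66.7% of Sox9cKO members and 81.0% of Sox9con members, at least 3 in 40.6% and 45.1%, and all 6 in 8 cells of both libraries. A member had a median of 5 rule UMIs in either library and at most 37 and 29. At the threshold, the lowest member score was 3.52 rule UMIs per 10000 UMIs, and the highest score of a cell that had at least 2 rule UMIs but stayed outside was 3.47. The median member score was 17.3 and the highest 144. A further 94 cells reached the score with 1 rule UMI and were left out by the rule, while 58 members entered with exactly 2.

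How far the 6 genes lay in the same cells was described by leaving each out in turn, choosing cells by the remaining genes and reading the gene left out. The genes had been picked together from these cells, and nearly all cells so chosen were members by all 6 (89 of 92 in Sox9cKO for Mmp25), so these values are no independent support for the set. Mmp25 had 201 CPM in the chosen Sox9cKO cells and 272 CPM in the chosen Sox9con cells, against 2.93 and 4.16 CPM elsewhere, log2 ratios of 6.07 and 6.002. Tll2 followed with 5.87 and 5.65, Dnah12 with 5.66 and 5.73, Scin with 5.35 and 5.85, and Fanci with 5.20 and 5.24. Cx3cr1 had the lowest of these ratios, 4.36 (3.94 to 4.80) in the Sox9cKO library and 5.12 (4.79 to 5.48) in the Sox9con library.

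Members made up 3.54% of analysed Sox9cKO cells (exact binomial 95% interval 2.88 to 4.30) and 5.25% of Sox9con cells (4.53 to 6.04), a log2 ratio of -0.57 (-0.94 to -0.20). The share ran from 2.82% to 4.17% over the 5 first-round wells of the Sox9cKO library and from 4.43% to 6.37% over the 4 wells of the Sox9con library. Wells are technical parts of a library and not replicate animals, and the well ranges did not overlap. Across the 8 sublibraries, read here from the suffix of the cell barcodes, the shares were 2.07% to 5% and 2.08% to 6.09%. In 1 sublibrary, with 4 and 2 members, the Sox9cKO share was the higher. Depth differed between the libraries, with medians of 4315 UMIs in members and 5059 in other cells for Sox9cKO, and 3009 and 3213 for Sox9con. Thinning to 2000 UMIs per cell left out 169 Sox9cKO and 616 Sox9con cells that were shallower. Among the 2544 and 2891 thinned cells the shares were 2.32% and 3.98%. With the top 6% taken within each library, the log2 ratio of the shares was -0.31. The mitochondrial share of UMIs, a sign of cell condition, had medians of 6.45% and 5.75% in members and 5.82% and 5.43% in the other cells.

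**Figure D1:**
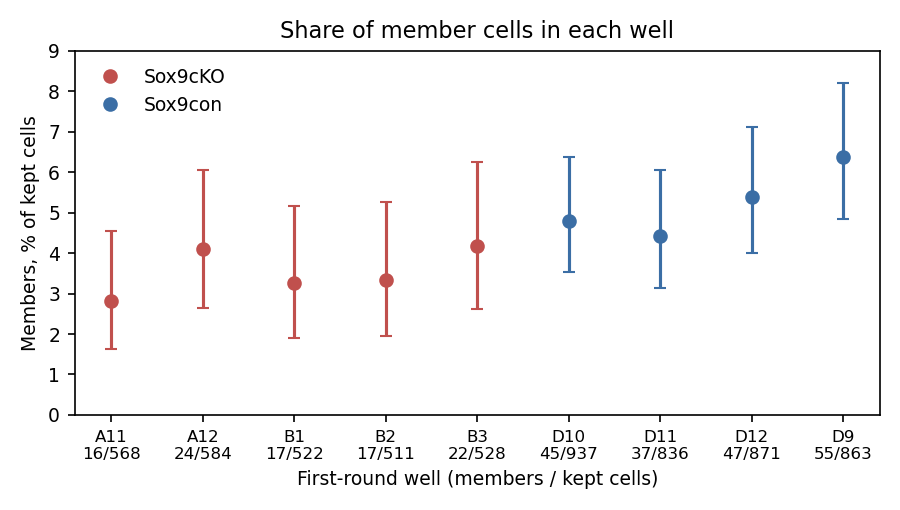
Members as a percentage of analysed cells (vertical axis) in each first-round well (horizontal axis), with exact binomial 95% intervals. The 5 Sox9cKO wells lie between 2.82% and 4.17% and the 4 Sox9con wells between 4.43% and 6.37%.

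When the cells were clustered on their transcripts with the 6 rule genes and Sox9 left out, 177 of the 280 members (63.2%) fell into 1 of 10 clusters, called the main cluster here. It held 225 cells, of which 78.7% were members, and its leading genes were Gm47507, 1700057G04Rik, Slpi, Pde4c, Slc2a9 and 6030407O03Rik. The main cluster took 136 of the 184 Sox9con members (73.9%) and 41 of the 96 Sox9cKO members (42.7%). Counting main-cluster members alone, the shares were 3.93% of Sox9con and 1.54% of Sox9cKO cells, a log2 ratio of -1.35. The gap between libraries was thus wider in the main cluster than over all members. Outside the main cluster it ran the other way. The endothelial-like cluster and all other clusters held 8 and 47 Sox9cKO members, against 9 and 39 from Sox9con, the library with more analysed cells. The libraries were not aligned to each other before clustering, so these shares depend on how the clusters divide the libraries.

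The remaining members were spread unevenly. A cluster of 551 cells, all from the Sox9cKO library and led by Hp, Serpina1b and Fst, held 28 members (5.08% of its cells). A cluster of 974 cells led by Adgrv1 and Cacna1c held 34 members, 30 of them from Sox9con. An endothelial-like cluster of 210 cells, led by Selp, Cdh5 and Kdr, held 17 members (8.10%). The cluster led by Ltf and the tuft-like cluster led by Gnat3 and Rgs13 had none among 296 and 28 cells.

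The more rule UMIs a member had, the more its nearest cells were members too. In the same space without rule genes, members with 2 rule UMIs had a median of 2 members among 15 nearest neighbours, those with 3 to 4 had 7, and those with 5 or more had 13. Other cells had a median of 0. Members averaged 56.9% member neighbours and other cells 1.02%. The 94 cells that reached the score with 1 rule UMI averaged 12.6%. Clusters and neighbours were built from genes of the same cells, so these figures are descriptions.

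The 6 genes were not shared equally between these places. In the main cluster Fanci was seen in 115 of 177 members, Cx3cr1 in 108, Dnah12 in 90, Mmp25 in 80, Scin in 68 and Tll2 in 64. Among the 17 members in the endothelial-like cluster, Cx3cr1 gave 73.6% of the rule UMIs and Tll2 none. Scin had 369 CPM in main-cluster members and 58.1 CPM in the 86 members of the other clusters, and Tll2 had 209.9 and 40.9 CPM. Fanci, at 647 and 577 CPM, was close in both.

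The label of the cells was checked against biliary markers. Of 14 markers, 13 had enough counts to test. Epcam had 529 CPM in Sox9cKO members and 664 CPM in Sox9con members, against 818 and 1122 CPM in the other cells. Krt19 had 439 and 546 CPM, against 927 and 1632, and Krt7 had 125 and 101 CPM, against 211 and 291. Keratins and Epcam were thus lower in members of both libraries, with log2 ratios of -0.63 and -0.76 for Epcam, -1.08 and -1.58 for Krt19, and -0.75 and -1.53 for Krt7. Spp1, encoding osteopontin, had 2244 and 5734 CPM, against 2042 and 3908. Pkhd1, the gene of fibrocystin at the primary cilium, was higher in members, with 1422 and 2237 CPM against 660.1 and 838, log2 ratios of 1.11 and 1.42. Bicc1, an RNA-binding protein gene whose loss gives cystic ducts and tubules, had log2 ratios of 0.88 and 0.89.

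In the 17 members of the endothelial-like cluster the markers differed. Their summed levels were 160.0 CPM of Epcam, 1500 CPM of Stab2, 1020 CPM of Kdr and 620 CPM of Cdh5, while main-cluster members had 679, 17.1, 1.71 and 0 CPM. These 17 cells met the rule without carrying the biliary profile. Values without the endothelial-like cluster are given below where they alter a result.

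Markers of leukocytes, from which Mmp25 and Cx3cr1 are best known, were mixed in the members, with many at 0 and some above the other cells. Of 10 macrophage markers, 6 were at 0 in both libraries, namely Ptprc, Clec4f, Lyz2, C1qa, C1qb and Tyrobp, and the list summed to 99.0 and 62.9 CPM in members against 38.2 and 28.7 CPM in other cells, most of it Csf1r and Cd68. Csf1r had 56.3 CPM in main-cluster members and 27.2 CPM in the remaining cells of other clusters. Itgam, an integrin of macrophages and neutrophils named after its values were seen, had 38 and 77 UMIs in members, or 81.8 and 121 CPM, against 3.21 and 2.67 CPM in the other cells. A count of 0 allows up to 6.45 CPM in Sox9cKO members and 4.72 CPM in Sox9con members. Of 8 neutrophil markers 5 were at 0, including S100a8, S100a9 and Ly6g, and the list had 1 and 2 UMIs. Of 8 lymphoid markers 5 were at 0, including Cd3e and Cd8a. Cd4 had 12 and 9 UMIs in members against 11 and 3 in all other cells. Of 7 dendritic cell markers 3 were at 0 in both libraries, namely Xcr1, Cd209a and Siglech. The 1 dendritic marker with enough counts to test was not higher in members, with log2 ratios of -1.27 and -0.12. Itgax, usually a dendritic cell gene, had 9 and 10 UMIs, with 19.4 and 15.7 CPM in members against 0.349 and 0.167 CPM elsewhere.

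Across genes with at least 100 UMIs in each library, 338 of 9096 were at least 2-fold higher in members than in the other cells of the same library in both libraries, 3.72% of genes tested. At least 2-fold lower in both were 358 genes, 3.94%. In the single libraries the higher share was 8.09% of tested genes in Sox9cKO and 7.11% in Sox9con, and the lower share 11.2% and 10.4%. Among genes tested in both libraries, 653 were higher in Sox9cKO members and 591 in Sox9con members. Of the first, 51.8% were also 2-fold higher in Sox9con members, and of the second 57.2% were so in Sox9cKO. Of the 980 and 939 lower genes, 36.5% and 38.1% were shared. The median ratio of all tested genes was -0.11 and -0.14. This contrast is the one the rule was built on, so nothing beyond a description is read from the counts. The minimum of 100 UMIs counted members and other cells together, so a gene rare elsewhere could reach it through its member UMIs. A sparse gene thus entered more readily when it was high in members. The number of higher genes was 75 when members and other cells were weighted to an equal mix of clusters.

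Among genes with at least 100 UMIs in each library, the largest enrichment by counting bounds was that of 1700057G04Rik (ENSMUSG00000074139), a gene with no settled function. It had 71 UMIs in Sox9cKO members, or 153 CPM, against 32 UMIs, or 2.23 CPM, in the other cells. In Sox9con members it had 94 UMIs, or 148 CPM, against 34 UMIs, or 2.84 CPM. It reached the minimum in both libraries only with its member UMIs, as did Pde4c, Slc2a9, Iqcn, Fam171b, Matn4 and Dnah17. Slpi did so in the Sox9con library and Pygm in the Sox9cKO library. The log2 ratios of 1700057G04Rik were 6.05 (5.47 to 6.75) and 5.66 (5.12 to 6.31). Over the wells, member levels spanned 80.8 to 190.4 CPM in Sox9cKO and 121 to 256 CPM in Sox9con, so the libraries overlapped, and no well of other cells exceeded 3.65 CPM.

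Slpi (ENSMUSG00000017002) encodes secretory leukocyte peptidase inhibitor, an antiprotease of mucosal surfaces. It had 301 CPM in Sox9cKO members against 8.72 CPM in other cells, and 366 CPM in Sox9con members against 7.93 CPM, folds of 34.3 and 45.7. Member levels by well were 662, 317, 271, 196 and 171 CPM in the Sox9cKO library and 399, 512, 387 and 292 CPM in the Sox9con library. Other cells of a well reached at most 11.7 CPM, below the member level of every well. The wells are parts of the sums by which Slpi was picked, so they are no repeat of the difference. Pde4c (ENSMUSG00000031842), a phosphodiesterase that degrades cyclic AMP and is known at the primary cilium, had 166 and 239 CPM in members against 4.26 and 6.09 CPM, with log2 ratios of 5.26 and 5.28. Slc2a9 (ENSMUSG00000005107), a urate transporter, had 179 and 165 CPM against 5.09 and 6.51 CPM. In 1 Sox9cKO well Slc2a9 fell to 11.5 CPM in members, from 1 UMI, while in the other 8 wells it was 110 to 286 CPM.

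The other named genes higher in members had log2 ratios between 3.03 and 5.22. Iqcn, a gene with calmodulin-binding motifs, had 151 and 182 CPM in members against 5.86 and 7.35. Fam171b, a membrane protein gene, had 116 and 127 CPM against 4.88 and 3.34, and Matn4, encoding the matrix protein matrilin 4, 110 and 134 CPM against 4.47 and 7.43. The uncharacterised 6030407O03Rik had 286 and 478 CPM against 14.8 and 16.9. Brip1, a helicase of the Fanconi pathway and a partner of BRCA1, had 164 and 171 CPM against 13.7 and 13.8, so its levels were nearly equal between libraries in both kinds of cell. Dnah17, another heavy chain of motile cilium dynein, had 86.1 and 64.5 CPM against 5.30 and 5.01. Pygm, the muscle form of glycogen phosphorylase, had log2 ratios of 3.91 and 3.32, and Tex14, a gene of germ cell intercellular bridges, 3.05 and 3.03. Lsmem1, Trim69 and 2900089D17Rik completed the 15, with ratios of 3.80 and 4.19, 4.35 and 3.66, and 3.31 and 3.18. Trim69 had 1360 CPM in endothelial-like members and 119 CPM in main-cluster members, and without the endothelial-like cluster its ratios were 4.91 and 4.34. It was not above other cells in 1 of the 9 wells. Members were above other cells in all 9 wells for the other 14 genes, but the wells are parts of the sums by which the genes were picked.

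These genes were counted in a part of the members only. Slpi was detected in 41 of the 96 Sox9cKO members and 90 of the 184 Sox9con members, Lsmem1 in 42 and 88, Pde4c in 37 and 64, and Dnah17 in 26 and 29. With members and other cells weighted to an equal mix of clusters, the smaller of the library ratios was lower for all 15 genes. It was 1.14 for 1700057G04Rik, 1.30 for Slpi and 2.26 for Pde4c, and 5 of the 15 fell below 2-fold, namely Matn4 (0.83), Brip1 (0.85), Pygm (0.87), Tex14 (0.69) and 2900089D17Rik (0.998). The richest cell held between 3.43% and 20.4% of a gene's member UMIs over the 15 genes, the highest being Fam171b in the Sox9cKO library.

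**Figure D2:**
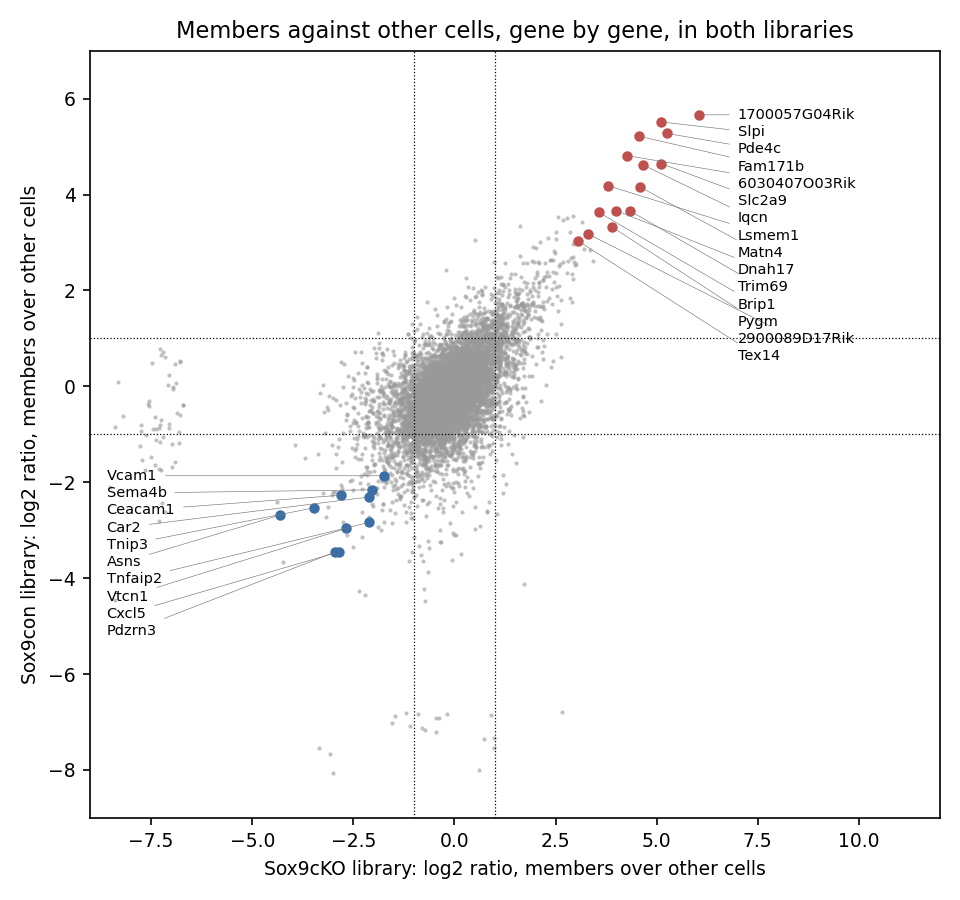
Each point is 1 of 9096 genes, with the log2 ratio of members over other cells in the Sox9cKO library (horizontal) and in the Sox9con library (vertical). Red and blue points are the named higher and lower genes, dotted lines mark 2-fold, and grey points beyond -6 are genes with 0 UMIs in the members of a library, whose position depends on the 0.5 counts added. The named higher genes lie between 3.03 and 6.05 on both axes.

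Slpi and 1700057G04Rik were highest in main-cluster members and were above other cells in members of 2 further clusters, while Pde4c, Iqcn and Trim69 were highest in the 17 endothelial-like members. Slpi had 488 CPM in main-cluster members, 169 CPM in the 28 members of the Hp and Serpina1b cluster and 296 CPM in the 34 members of the Adgrv1 cluster, against 20.05 and 16.7 CPM in the other cells of those last 2 clusters. 1700057G04Rik had 203, 152 and 78.6 CPM, against 2.91 and 3.33 CPM. The 48 cells of the main cluster that did not meet the rule had 285 CPM of Slpi and 167 CPM of 1700057G04Rik, while Scin was at 0 in them. Pde4c, Iqcn and Trim69 had 480, 440 and 1360 CPM in the endothelial-like members, against 306, 212 and 119 CPM in main-cluster members. They were also present in endothelial-like cells that were not members, at 90.9, 99.1 and 263 CPM, against 2.70, 3.48 and 3.87 CPM in the remaining cells of other clusters.

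**Figure D3:**
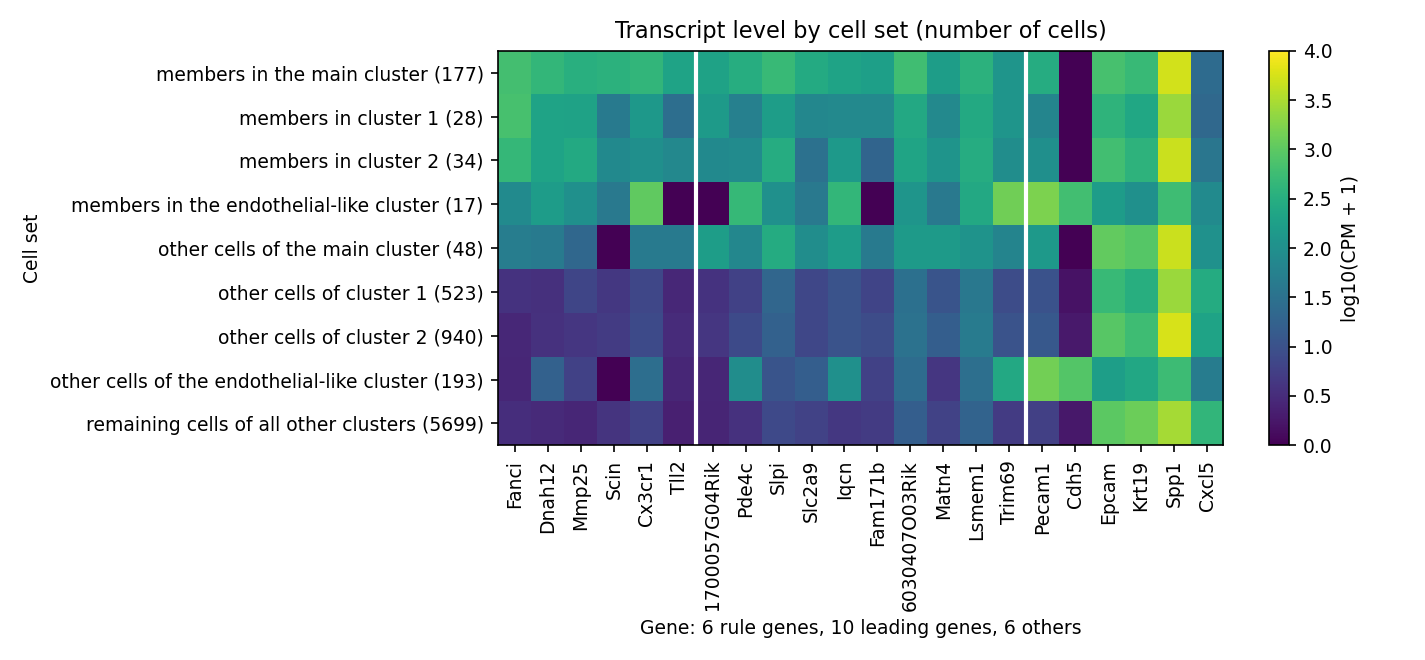
Colour gives log10(CPM + 1) for the 6 rule genes, the 10 leading genes and 6 others (columns) in 9 sets of cells summed over both libraries (rows, with the number of cells). Members of the main cluster and of clusters 1 (Hp, Serpina1b) and 2 (Adgrv1) carry the leading genes, and Cdh5 appears in the endothelial-like sets while it is 0 in main-cluster members.

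The genes lower in members were led by Cxcl5. Cxcl5, a neutrophil-attracting chemokine, had 53.8 CPM in Sox9cKO members against 389 CPM in other cells, and 40.9 CPM in Sox9con members against 448 CPM, log2 ratios of -2.85 and -3.45. Tnip3, an inhibitor of NF-kappaB signalling, had 28.0 and 37.7 CPM against 312 and 219, and Tnfaip2, a gene induced by tumour necrosis factor, 241 and 75.5 CPM against 1036 and 540.0. Car2, the carbonic anhydrase that supplies bicarbonate to duct cells, had 219 and 244 CPM against 946 and 1207. Member levels were below those of the other cells of the same library in each case, and for Cxcl5 in all 9 wells. Vcam1, an adhesion molecule, had ratios of -1.73 and -1.86, Ceacam1 -2.79 and -2.27, Vtcn1, a coinhibitory B7 family member, -2.67 and -2.96, and Sema4b -2.05 and -2.16. Pdzrn3 and asparagine synthetase Asns rested on few member UMIs, 7 and 4 for Pdzrn3, and 2 and 8 for Asns. Weighted to an equal mix of clusters, 5 of the 10 no longer reached 2-fold in both libraries. The larger of the library ratios was then 0.10 for Ceacam1, 0.42 for Tnip3, -0.34 for Sema4b, -0.94 for Car2 and -0.998 for Vtcn1.

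Gene lists drawn around the families of the rule genes gave mixed counts. A list gene was counted when it had at least 100 UMIs in each library and was at least 2-fold apart in both, which 3.72% of all tested genes were upward and 3.94% downward. Of 18 axonemal dynein genes 3 could be tested and 2 were higher, Dnah17 and Dnah5, the latter with 58.1 and 51.9 CPM in members against 14.9 and 12.3. Dnah7b had ratios of 0.90 and 1.82. Of 15 multiciliated cell genes 2 could be tested, none was higher and Tppp3 was lower, and Foxj1, the master regulator of motile cilia, had 28.0 and 20.4 CPM in members against 8.44 and 4.51 CPM, from 13 UMIs in each library. Of 16 primary cilium genes 15 could be tested and Pkhd1 alone was higher, with a list median near 0 (0.00 and -0.14).

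Of 19 genes of Fanconi anaemia and crosslink repair, 6 could be tested, and Brip1 and Fancm, the pathway's anchor helicase, were higher. Fancm had 38.7 and 50.3 CPM in members against 12.1 and 12.4 CPM, and Fancl and Fancc had ratios from -0.61 to 0.48. Of 17 proliferation genes 4 could be tested and Cenpf alone was higher, at 1.70 and 1.73. Mki67 had 14 and 24 UMIs in members, with ratios of 0.83 and 1.09. Metalloproteinases and their inhibitors had 10 testable genes, none higher and Mmp7 lower, at -1.56 and -1.11. The tolloid and BMP list and the gelsolin and villin list, with 9 and 6 testable genes, had none past 2-fold in both libraries.

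Immediate early genes, transcription factors and regulators that switch on within minutes of a stimulus and also during cell dissociation, had 5 of 16 testable genes higher. Fos had 1205 CPM in Sox9cKO members and 1093 CPM in Sox9con members, against 340.1 and 309 CPM, a log2 ratio of 1.82 in both. Atf3 had 1168 and 1212 CPM against 327 and 387, and its members were above other cells in all 9 wells, by 1.48 to 2.32. Egr1, Fosb and Jun had ratios of 1.64 and 1.72, 1.55 and 1.501, and 1.30 and 1.17. Others of the list did not follow: Fosl1 was at -0.66 and -0.63 and Ier3 at -0.71 and -0.51. The list's medians were 0.98 and 0.60. Atf3 had 1458 CPM in members of the Hp and Serpina1b cluster and 908 CPM in the other cells there, and 1050 CPM in main-cluster members against 681 CPM in the other cells there, smaller differences than over all cells. Whether the handling of the tissue had a part in these levels was not tested.

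Chemokines fell on the lower side, with 4 of 9 testable genes lower and none higher. Cxcl1 had 349 and 497 CPM in members against 777 and 1031, and Cxcl2 342 and 340 CPM against 954 and 916. Cxcl10 did not share this, with ratios of 0.72 and 0.17. Mucins and trefoil factors had 3 of 6 testable genes lower, among them Muc4 at -3.69 and -1.49 and Muc6, a gland mucin, with 0 and 2 UMIs in members. Muc13 had ratios of 0.90 and 1.30. Of 13 testable genes of bile secretion and transport, Car2 and the chloride cotransporter Slc12a2 were lower, the latter at -1.60 and -1.05. Cftr, the chloride channel that drives ductal secretion, had 222 and 476 CPM in members against 217 and 317 CPM. Of 17 testable basement membrane and integrin genes, Itga2 and Itgb6 were lower, at -1.46 and -2.64 and at -1.63 and -1.19.

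Signalling lists had members on both sides. In the Notch list of 7 testable genes, the ligand gene Dll1 and the coactivator gene Maml2 were lower, at -1.08 and -1.04 and at -1.02 and -1.16, and the target Hes1 had 1.23 and 0.92. Of 11 testable YAP and TEAD genes, Ccn2 and Amotl2 were higher, at 1.54 and 1.93 and at 1.49 and 1.20, and Tead4 and F3, the tissue factor gene, were lower. Of 16 testable activin and TGF-beta genes 4 were higher, Fstl1, Fstl3, Tgfb1 and Tgfb3, and 2 lower, Ltbp1 and Acvr1b. Ltbp1, which stores latent TGF-beta in the matrix, had 607 and 121 CPM in members against 1776 and 870 CPM. Among other SOX factors Sox6 was higher, with 108 and 222 CPM against 42.1 and 54.9 CPM, and Sox5 had ratios of 0.65 and 1.16. In the tuft cell list the lineage factor Pou2f3 was higher, with 28.0 and 66.0 CPM against 9.002 and 6.43 CPM, while Dclk1 was lower, at -1.33 and -2.35, and no member lay in the tuft-like cluster.

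**Figure D4:**
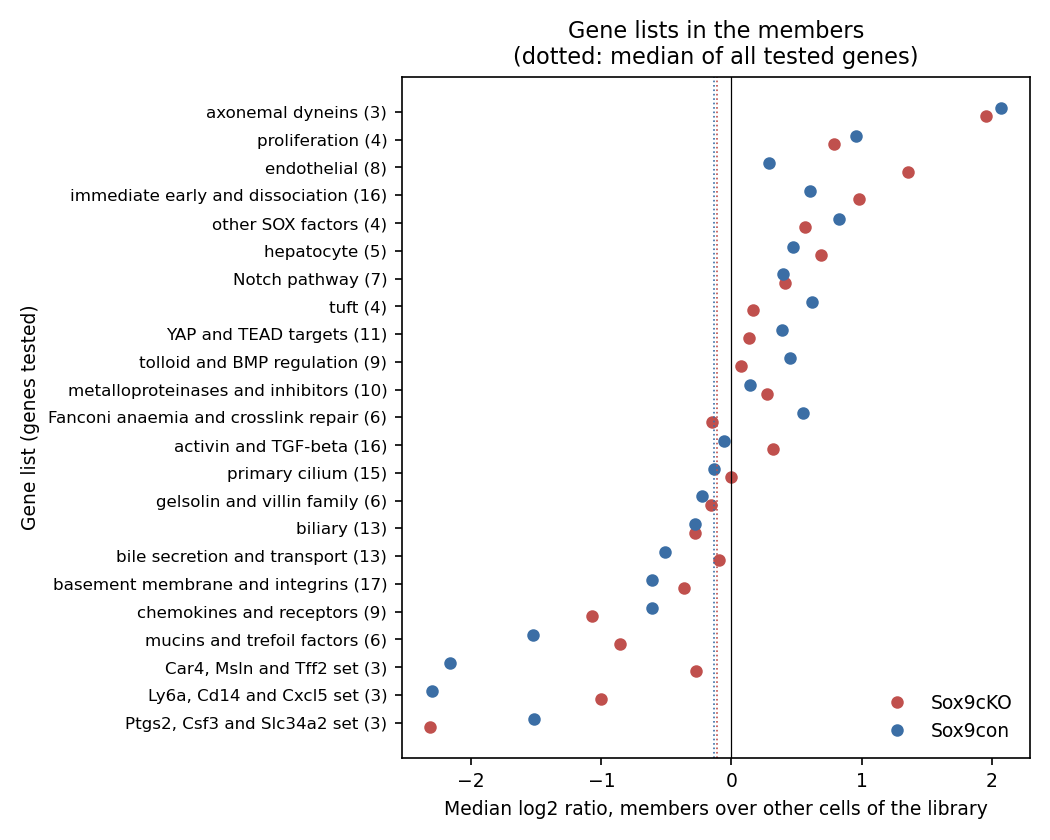
Median log2 ratio of members over other cells (horizontal) for each gene list with at least 3 testable genes (rows, number tested in brackets), 1 point per library, with the medians of all tested genes dotted at -0.11 and -0.14. Lists with few genes rest on those genes alone, such as the 3 axonemal dyneins.

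Endothelial genes needed the split by cluster. Over all members Pecam1, the platelet and endothelial adhesion molecule, had 226 and 286 CPM against 27.8 and 48.9 CPM, and Flt1 was also higher, at 1.33 and 1.23. Without the endothelial-like cluster, Pecam1 had 146 and 232 CPM in the 88 and 175 members left, with ratios of 5.10 and 4.99, whereas Cdh5, which defines endothelium, had 0 UMIs, which allows up to 6.83 and 4.91 CPM. Flt1 then had 4.55 and 6.54 CPM. In main-cluster members Pecam1 had 299 CPM, against 4.77 CPM in the remaining cells of other clusters. Pecam1 transcripts were thus measured in cells with Cdh5 at 0 and Flt1 at a low level.

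Some genes higher in members lay beside each other on the chromosome. Of 327 higher genes that could be placed in the RefSeq gene order, 40 (12.2%) had a neighbouring tested gene that was also higher, against 6.88% of the genes that were not called. For the lower genes it was 49 of 355 (13.8%) against 7.43%. The 20 adjacent higher pairs included Iqcn with Pde4c, Slpi with Matn4, Plscr2 with 1700057G04Rik, Arl4a with Lsmem1, Tecpr1 with 2900089D17Rik, Pecam1 with Polg2, and Stat5b with Stat5a. In all, 7 of the 15 named higher genes stood beside another higher gene. The strand setting of the counting is not given in the sources used here, so reads running from a gene into its neighbour were not told apart from the neighbour's own.

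The 250 bases before the start of the genes in the leading 2 pairs are shown because these pairs had the largest ratios in both of their genes. They are from RefSeq, build GRCm38.p6, written 5′ to 3′ on the gene's strand, with capitals marking a motif match. Iqcn lies on the plus strand at chr8:70701775-70702024 and Pde4c on the plus strand at chr8:70723814-70724063. Slpi lies on the minus strand at chr2:164356508-164356757 and Matn4, of which 1 of its starts is shown, on the minus strand at chr2:164405161-164405410.
Iqcn: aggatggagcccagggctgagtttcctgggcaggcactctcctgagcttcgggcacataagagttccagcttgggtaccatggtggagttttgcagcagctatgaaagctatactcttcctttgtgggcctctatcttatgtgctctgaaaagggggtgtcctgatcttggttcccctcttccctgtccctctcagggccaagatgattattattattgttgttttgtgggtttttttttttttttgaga
Pde4c: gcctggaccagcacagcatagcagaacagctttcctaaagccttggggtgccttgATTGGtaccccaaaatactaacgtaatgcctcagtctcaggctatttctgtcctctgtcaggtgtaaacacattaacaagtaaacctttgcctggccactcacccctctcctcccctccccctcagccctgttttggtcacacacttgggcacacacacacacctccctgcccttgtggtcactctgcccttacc
Slpi: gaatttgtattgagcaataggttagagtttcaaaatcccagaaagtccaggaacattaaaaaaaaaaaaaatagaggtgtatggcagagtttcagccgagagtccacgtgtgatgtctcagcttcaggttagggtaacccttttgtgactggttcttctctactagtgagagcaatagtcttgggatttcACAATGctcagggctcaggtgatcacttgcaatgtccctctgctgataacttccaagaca
Matn4: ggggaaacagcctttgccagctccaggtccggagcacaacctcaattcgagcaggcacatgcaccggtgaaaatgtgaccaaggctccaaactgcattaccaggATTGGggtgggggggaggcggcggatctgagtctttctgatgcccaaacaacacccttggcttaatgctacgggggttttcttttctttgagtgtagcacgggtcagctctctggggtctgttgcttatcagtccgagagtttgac
Motifs were searched on both strands. A gene was counted when any of its starts had a match. The CCAAT box, CCAAT, was found in Pde4c and Matn4, in each as its reverse complement. It was in 44.3% of the 255 higher genes with a RefSeq promoter, 39.3% of 7238 tested genes and 37.5% of all 27025 genes. The SOX motif ACAATG was found in Slpi, and in 11.8%, 7.54% and 12.2% of these groups of genes. Of the other motifs, AP-1 (TGANTCA) was in 7.06% of the higher genes against 5.62% of tested genes, CRE (TGACGTCA) in 1.96% against 3.36%, TEAD (GGAATG) in 16.9% against 12.8% and TATAAA in 12.2% against 7.94%. Among all genes these motifs were in 7.82%, 1.77%, 14.4% and 14.3%, in the same order. No motif searched was found in the Iqcn window. A match shows only that the letters are there.

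The members of the libraries were then compared with each other. Among 4074 genes with at least 50 UMIs over all members, 138 were at least 2-fold higher in Sox9cKO members (3.39%) and 169 at least 2-fold lower (4.15%). The same genes in the other cells gave 53 (1.3%) and 66 (1.62%). Member sums hold far fewer UMIs than those of other cells, so their ratios have wider counting intervals. The number higher was 65 with main-cluster members alone and 48 with thinned cells.

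Sox9 itself had 54 UMIs in Sox9cKO members, or 116 CPM (87.3 to 152), and 134 UMIs in Sox9con members, or 211 CPM (177 to 249.5), a log2 ratio of -0.85 (-1.34 to -0.39). In the other cells it had 120 and 138 CPM. By well, Sox9 in members ran from 66.3 to 217 CPM in Sox9cKO and from 36.6 to 288 CPM in Sox9con, so the wells overlapped. Well D9 of the Sox9con library held 76 of its 134 UMIs, and without it the ratio was -0.36. Transcripts of Sox9 were thus present in the library labelled Sox9cKO, and since the deleted part of the gene is not given in the sources used here, these counts do not check the label. Spp1 had 2244 and 5734 CPM, a ratio of -1.35 in members and -0.94 in other cells. Krt7 had a ratio of 0.31 in members and -0.47 in other cells, and Krt19 -0.31 and -0.82.

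Genes higher in Sox9cKO members included transcripts of plasma proteins. Gc, the vitamin D binding protein, had 374 CPM in Sox9cKO members and 17.3 CPM in Sox9con members, a ratio of 4.37, and its ratio in the other cells was 4.31. Vtn, vitronectin, had 254 and 9.43 CPM, ratios of 4.62 in members and 4.39 in other cells, and Hp, haptoglobin, 133 and 6.29 CPM, ratios of 4.22 and 6.07. Apob had 566 and 45.6 CPM, ratios of 3.61 in members and 2.47 in other cells, and Pzp 217 and 11.01 CPM, ratios of 4.19 and 2.10. For Apob, 1 cell held 33.1% of the 263 UMIs in Sox9cKO members. The difference for Gc, Vtn and Hp was thus found in members and other cells alike. It moved with where the members lay: Gc had 789 CPM in the 28 members of the Hp and Serpina1b cluster, 154 CPM in Sox9cKO members of the main cluster and 20.9 CPM in Sox9con members there, a main-cluster ratio of 2.78 (1.73 to 4.17).

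Ncam1, a neural cell adhesion molecule also seen on reactive ductal cells, had 329 CPM in Sox9cKO members and 4.72 CPM in Sox9con members. Its ratio was 5.87 (4.55 to 8.42) in members, 2.83 in other cells and 4.71 (3.35 to 7.36) in main-cluster members. The gene was seen in 47 of 96 Sox9cKO members and in 2 of 184 Sox9con members. Map1b, a microtubule-associated protein gene, had 172 and 12.6 CPM, ratios of 3.68 in members and 1.73 in other cells. For Map1b, 1 cell held 27.5% of the 80 UMIs in Sox9cKO members. Igfbp5 rested largely on 1 cell, which held 64.9% of its 77 UMIs in the Sox9cKO members. D530033B14Rik had a ratio of 3.38 over all members and -1.32 in the main cluster.

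Genes lower in Sox9cKO members included Adgrv1, a giant adhesion receptor, with 8.61 CPM in Sox9cKO members and 115 CPM in Sox9con members, a ratio of -3.60 (-5.65 to -2.32) in members and -3.12 in other cells. Igsf11, a cell adhesion gene, had 23.7 and 165 CPM, ratios of -2.76 in members, -1.32 in other cells and -3.20 in main-cluster members. Ppp2r2b, a regulatory subunit of phosphatase 2A, had 17.2 and 167 CPM, a ratio of -3.21, and A230001M10Rik 15.1 and 134 CPM, a ratio of -3.07. Rbm44 had 17.2 CPM in Sox9cKO members against 0.768 in other cells, from 8 and 11 UMIs. In Sox9con it had 72.3 CPM against 1.92, from 46 and 23 UMIs. It had too few UMIs in either library for the comparison of members with other cells. Rbm44 entered here by its UMIs over members, a filter that favours genes high in members, so these levels are descriptions only. The ratio of Rbm44 between libraries was -2.02. Arhgef38, Gm16351, Fstl4, Zdhhc2 and 9130008F23Rik had ratios from -2.76 to -2.07. Each of the 10 genes was below 0 in the other cells too, from -3.12 to -0.79.

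**Figure D5:**
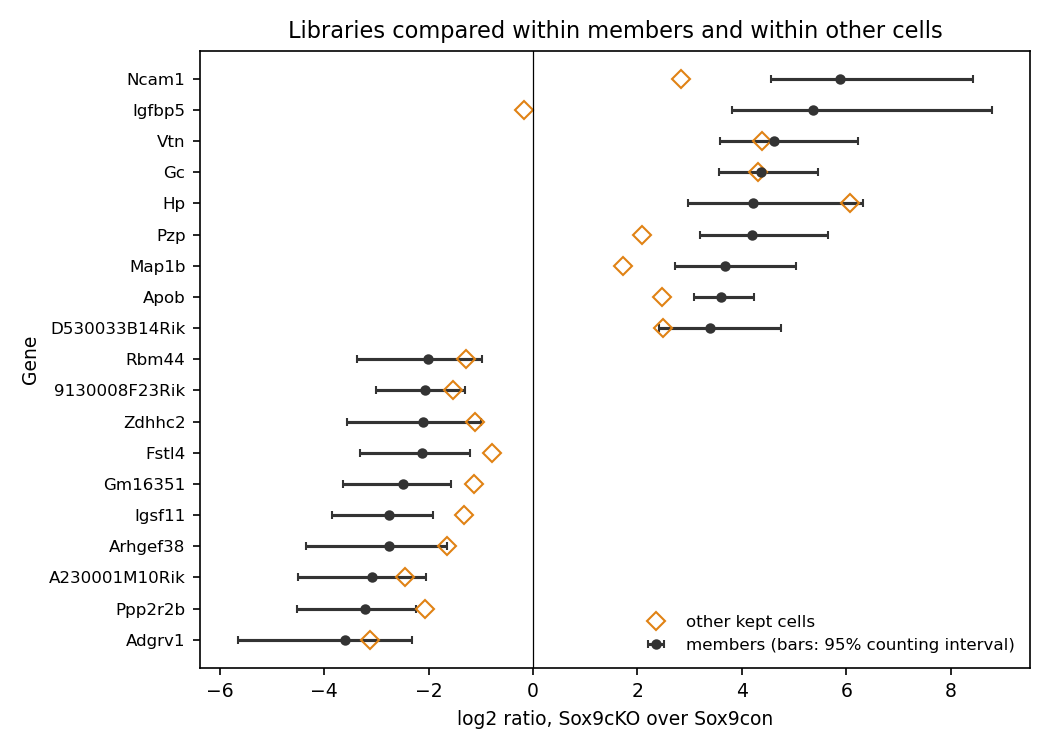
Log2 ratio of Sox9cKO over Sox9con (horizontal) for the named higher and lower genes (rows), in members (black, bars are 95% counting intervals) and in other analysed cells (orange diamonds). The plasma protein genes Gc and Vtn have close ratios in both kinds of cell, and Igfbp5, which rests largely on 1 cell, lies at -0.17 in the other cells.

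Members were set beside other marker-defined sets of biliary cells chosen by the same kind of rule. They shared 34 cells with the Adgrv1, Ctnna2 and Igsf11 set, 12.1% of members and 10.5% of that set, which was 5.19% of all analysed cells. They shared 7 cells with the Car4, Msln and Tff2 set (2.50% of members and 1.87% of the set, which was 6.01% of analysed cells), 3 each with the Ptgs2 and the Ltf sets, 2 with the Muc6 set and none with the Ly6a, Cd14 and Cxcl5 set. These last 4 sets were 5.72%, 5.64%, 2.28% and 6.01% of analysed cells. Of the genes of the final set, Cxcl5 and Cd14 were at least 2-fold lower in members, Cd14 at -1.003 and -2.30, and Ly6a had ratios of -0.67 and -1.22.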

How the data were processed

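Per the labels' protocols, fixed cells were processed with the Evercode Whole Transcriptome kit, and per the submitters' processing notes the genome build was GRCm39. The deposited counts are UMI counts per gene and cell, made by the authors with an aligner and cell filter not given in the sources used here. Of 55415 genes, 1416 had no symbol. Totals were 14856321 and 12811243 UMIs. The members and gene lists were chosen with earlier results of these data known.

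Member and other cells were summed per library, and ratios are log2 values with 0.5 counts added. Intervals are exact at 95% (Poisson, Clopper-Pearson or conditional binomial). With 1 library per genotype and members chosen on the same contrast, no test was run. Called means at least 2-fold. Named genes are the 15 highest and 10 lowest called in both libraries by the interval bound nearer 0, and the 10 highest and 10 lowest between libraries, plus Sox9 and biliary markers, and up to 4 genes of a list with the most extreme ratios. Other genes named as examples were chosen after their values were seen. Some genes that these rules name are not reported here. The 2000 most variable genes, 30 principal components, 15 neighbours and Leiden resolution 0.5 (scanpy 1.11.5) gave the clusters. Scrublet marked 12 cells as possible doublets, under the share at which it can be relied on, and no cell was removed for it. TMM (edgeR 4.0.16) and DESeq2 1.42.0 size factors were alternatives only. The counting script was checked on simulated data.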

Additional observations from a re-analysis of the deposited data

How the results depend on the processing

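The log2 ratio of member shares, Sox9cKO over Sox9con, was below 0 in all 25 alternatives (-1.35 with main-cluster members only, to -0.31), and that of Sox9 in members in all 27 (-1.06 to -0.36). Sox9 was at -0.36 without Mmp25 in the score and at -0.36 without well D9. Genes higher in members of both libraries numbered 137 with thinned cells, 75 with an equal mix of clusters, and 618 and 162 with minima of 50 and 200 UMIs. Lower genes numbered 133 with an equal mix and 571 with main-cluster members only. Genes higher in Sox9cKO members numbered 48 with thinned cells, 379 and 58 with minima of 20 and 100 UMIs, and 65 in the main cluster. Lower ones numbered 54, then 526 and 58. The lowest ratio of a left-out rule gene ran from 4.01 with the top 8% of scores to 4.86 with the top 4%. Among named genes, signs turned for Ceacam1 (0.10) and Tnip3 (0.42) with an equal mix and for D530033B14Rik (-1.32) in the main cluster. List medians changed sign in at least 1 alternative for 15 of 32 lists, among them the Ltf, Muc4 and Anxa10 list (1.01 with an equal mix), endothelial (0.82 to -2.00) and proliferation (0.87 to -1.95) genes in the main cluster, activin and TGF-beta (0.13 to -0.36, main cluster) and YAP and TEAD genes (0.26 to -0.26, equal mix). The cause was not tested. The main-cluster setting and the minimum of 5 rule UMIs were chosen after seeing the data. No paired analysis was possible because each genotype has 1 library, and for the same reason no replicate could be left out.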

Other observations

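Members also held transcripts of genes that were nearly absent from the other cells. Genes under 1 CPM in the other cells of the opposite library, without rule, mitochondrial and sex-linked genes, gave 1.39% of UMIs in Sox9cKO members and 1.73% in Sox9con members, against 0.311% and 0.336% in all other cells. In main-cluster members the share was 2.33% and 2.15%. In members of clusters other than the main and endothelial-like ones it was 0.811% and 0.680%, against 0.295% and 0.303% in the remaining cells there. Raised shares were not particular to members. Cells outside the rule had 0.888% and 1.19% in the main cluster and 0.897% and 1.08% in the endothelial-like cluster. The tuft-like cluster, which held no member, had 0.909% and 0.754%. The genes were defined by low levels in the bulk of cells, so small clusters stand out by this measure. In cells of at least 2000 UMIs, the number of genes seen at that depth was close. Medians were 1167 and 1190 in members and 1165 and 1188 in other cells. This measure was added after seeing the data.

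Genes too sparse for the comparisons were looked at when they had at least 20 UMIs over members, a filter that favours genes high in members. Of 445 such genes 397 were at least 2-fold higher in members of both libraries and 0 lower, so the following are descriptions only. They were chosen after their values were seen. Ryr1, the calcium release channel of skeletal muscle, had 41 and 59 UMIs in members and 6 and 12 in all other cells of the same libraries. Fer1l5, a ferlin family gene, had 53 and 79 UMIs in members against 12 and 17, in 21 and 41 cells. Nrxn2, a neurexin of synapses, had 48 and 67 against 21 and 25. Il12rb1, a subunit of the interleukin 12 receptor, had 23 and 21 against 1 and 5.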
